A study of Mus musculus with 4 samples.

Results

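Rab GTPases, the largest family of Ras-like small G proteins, were described here by their ribosome-protected fragments (RPFs) in leptotene/zygotene spermatocytes of control and *Eef1g*-cKO mice. Members were the rows of the FPKM table whose symbol is Rab followed by a number and at most a letter and a further digit, which gave 41 of 11598 genes. RefSeq (GRCm38.p6) lists 59 mouse symbols of that form. Of the 41 rows, 40 carried such a symbol and 1, *Rab1*, matched *Rab1a* by its older name. The other 18 symbols were not analysed here. FPKM are reads per kilobase of gene per 1000000 reads on genes. The gene length used exceeds the coding sequence, with 2012 bases for *Rab8a* and 4751 for *Rab8b*, whose coding sequences both have 621. Levels of different genes thus depend on their untranslated length too and compare only roughly.

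The study asked how loss of eEF1G, a subunit of the translation elongation factor 1 complex, changes translation in early meiotic prophase. Cells were sorted by their Hoechst staining from testes of mice at 12 dpp, and RPFs of 26 to 34 nt were sequenced (Ribo-seq). There were 2 control libraries, wild type in the sample labels and control littermates in the study's text, and 2 *Eef1g*-cKO libraries. In *Eef1g*-cKO mice a *Stra8*-GFPCre transgene, active in male germ cells from the premeiotic stage, removes part of a floxed *Eef1g*, so the somatic cells of the testis keep the gene. The sources used here do not say whether the 2 libraries of a genotype came from separate animals, and p-values then measure only the spread between these libraries. No RNA level was used here, so a change in RPF abundance can come from mRNA level or from ribosome loading, which cannot be told apart.

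Rab proteins cycle between a GDP-bound form, held in the cytosol by GDP dissociation inhibitors, and a GTP-bound form that sits on membranes through a geranylgeranyl tail. Guanine nucleotide exchange factors (GEFs) switch them on, GTPase-activating proteins (GAPs) of the TBC family switch them off, and effectors read the active form to tether, move and fuse vesicles. Each Rab marks its own membrane, and the family spans the secretory route, the endosomes, the lysosome and the cilium. In male germ cells Rabs are known for their part in building the acrosome, a Golgi-derived organelle of the later spermatid.

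Reads on genes came to 2479504 and 1384282 in control, against 223906 and 407979 in *Eef1g*-cKO. The median Rab had 42 and 20 reads in control, against 4 and 7 in *Eef1g*-cKO. For a gene of 1 kb, 1 read was worth 0.403 and 0.722 FPKM in control, against 4.47 and 2.45 FPKM in *Eef1g*-cKO. *Eef1g* itself had 107 and 58 reads in control against 0 and 4 in *Eef1g*-cKO, or 27.2 ± 0.567 against 3.13 ± 4.43 FPKM (SD, n = 2; limma adjusted p = 0.0731). Marker levels moved with genotype. Summed early spermatocyte markers took 4654 and 3555 reads per 1000000 in control, against 9343 and 8912 in *Eef1g*-cKO, with 9 of 10 genes higher and *Stra8* lower. Spermatogonial markers took 2089 and 2475 against 313 and 316, and all 9 had a negative log2 fold change. The 8 Sertoli markers with a row, all with negative fold changes, took 1030 and 259 against 237 and 159, with *Gata4* at 0 reads in both *Eef1g*-cKO libraries. The 3 peritubular markers took 125 and 91.7 against 49.1 and 56.4. Leydig markers stayed between 4.90 and 11.6, pachytene and spermatid markers with a row (5 of 12) took 344 and 268 against 1108 and 1039, mostly *Hist1h1t*, while 3 of the 5 had negative fold changes (list median -1.46), and no macrophage marker had a row. In bulk cells, fewer cells of a type and fewer RPFs per cell cannot be told apart. The part of these marker differences in the Rab results below was not tested.

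Several Rabs are close paralogs, so their coding sequences were compared first. RPFs of about 30 bases must differ between paralogs for reads to be assigned to the right gene. The phosphate loop, which grips the nucleotide, is among the most conserved stretches of the family, and its codons with 1 codon on each side are printed here for 2 sets of paralogs whose log2 fold changes had opposite signs. Sequences are mouse coding strands, 5′ to 3′, from GENCODE M21 transcripts (GRCm38), and capitals mark each base of *Rab1b* that differs from *Rab1*, and each base of *Rab5b* and *Rab5c* that differs from *Rab5a*.
Rab1: attggcgattctggggttggaaagtcctgc
Rab1b: attggTgaCtcCggCgtGggCaagtcGtgc
Rab5a: ctaggagagtctgctgttggcaaatcaagc
Rab5b: ctGggagagtctgcAgtGggGaaGtcTagc
Rab5c: TtGggCgagtctgcCgtGggcaaGtcCagc

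The *Rab1* window lay in a coding exon at chr11:20215655-20215684 (plus strand) and that of *Rab1b* at chr19:5105196-5105225 (minus strand). Those of *Rab5a*, *Rab5b* and *Rab5c* lay at chr17:53483988-53484017 (plus), chr10:128686806-128686835 (minus) and chr11:100719973-100720002 (minus). Even in this stretch, *Rab1b* differed from *Rab1* at 7 of 30 bases, *Rab5b* from *Rab5a* at 6 and *Rab5c* from *Rab5a* at 7. Over their coding sequences *Rab1* and *Rab1b* were 77.6% identical and shared 11 windows of 28 bases. *Rab6a* and *Rab6b* (78.4%), *Rab2a* and *Rab2b* (75.6%), *Rab8a* and *Rab8b* (78.3%), *Rab11a* and *Rab11b* (75.8%) and *Rab5a* and *Rab5c* (74.1%) shared none, while *Rab5a* and *Rab5b* (74.0%) shared 8. A footprint of 28 bases in the coding sequence could thus tell these paralogs apart nearly everywhere.

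Other annotated loci, some of them named as Rab pseudogenes, overlapped more. The share of a gene's 28-base coding windows found in another annotated transcript was 95.5% for *Rab11b*, 93.0% for *Rab4b*, 81.9% for *Rab5b*, 67.5% for *Rab43* and 66.5% for *Rab7*. It was 42.4% for *Rab8b*, 41.5% for *Rab2a*, 38.3% for *Rab9*, 26.5% for *Rab5a*, 22.4% for *Rab6a* and 12.9% for *Rab11a*. For *Rab14*, *Rab5c* and *Rab6b* no window was shared, and for *Rab1*, *Rab1b* and *Rab3a* the share was 3.23%, 1.91% and 0.316%. Exons of other genes on the same strand also cover 75.4% of the exon bases of *Rab43* (*Gm45140*) and 65.0% of those of *Rab4b* (*Gm21983* among them). On the opposite strand they cover 64.0% of those of *Rab2b* (*Tox4* among them) and 62.4% of those of *Rab24* (*Prelid1*). How the authors' counting treated shared reads and strand is not given in the sources used here, so the values of these genes are less certain.

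By FPKM, a few Rabs of the Golgi, the recycling endosome and the early endosome were highest in control cells. *Rab11a*, of the recycling endosome, and *Rab1*, which drives transport from the endoplasmic reticulum (ER) to the Golgi, led with means of 88.9 ± 1.85 and 88.6 ± 39.7 FPKM (SD, n = 2). *Rab1b* followed with 55.6 ± 31.7, then *Rab5c* with 41.4 ± 4.59, *Rab6a* with 39.3 ± 20.1, *Rab2a* with 38.3 ± 5.40 and *Rab14* with 35.1 ± 1.11 FPKM. *Rab8a* (34.1 ± 3.10), *Rab10* (33.6 ± 5.44) and *Rab5a* (29.6 ± 3.05) completed the 10 highest. From *Rab1b* to *Rab5a*, each gene's values overlapped those of the next gene in this order. For *Rab1*, *Rab1b* and *Rab6a*, whose SDs were large, control 2 was well above control 1.

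The 10 highest Rabs of control took 66.1% and 73.3% of Rab reads in control, against 76.2% and 73.5% in *Eef1g*-cKO, and 8 of them were also among the 10 highest of *Eef1g*-cKO. Across the 41 genes, Spearman's correlation was 0.951 between the control libraries, 0.915 between the *Eef1g*-cKO libraries and 0.835 between the genotype means, as a description over genes that are not independent replicates. *Rab1b* went from rank 3 to 11 and *Rab14* from 7 to 3, while *Rab1* stood at 2 and 1.

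**Figure D1:**
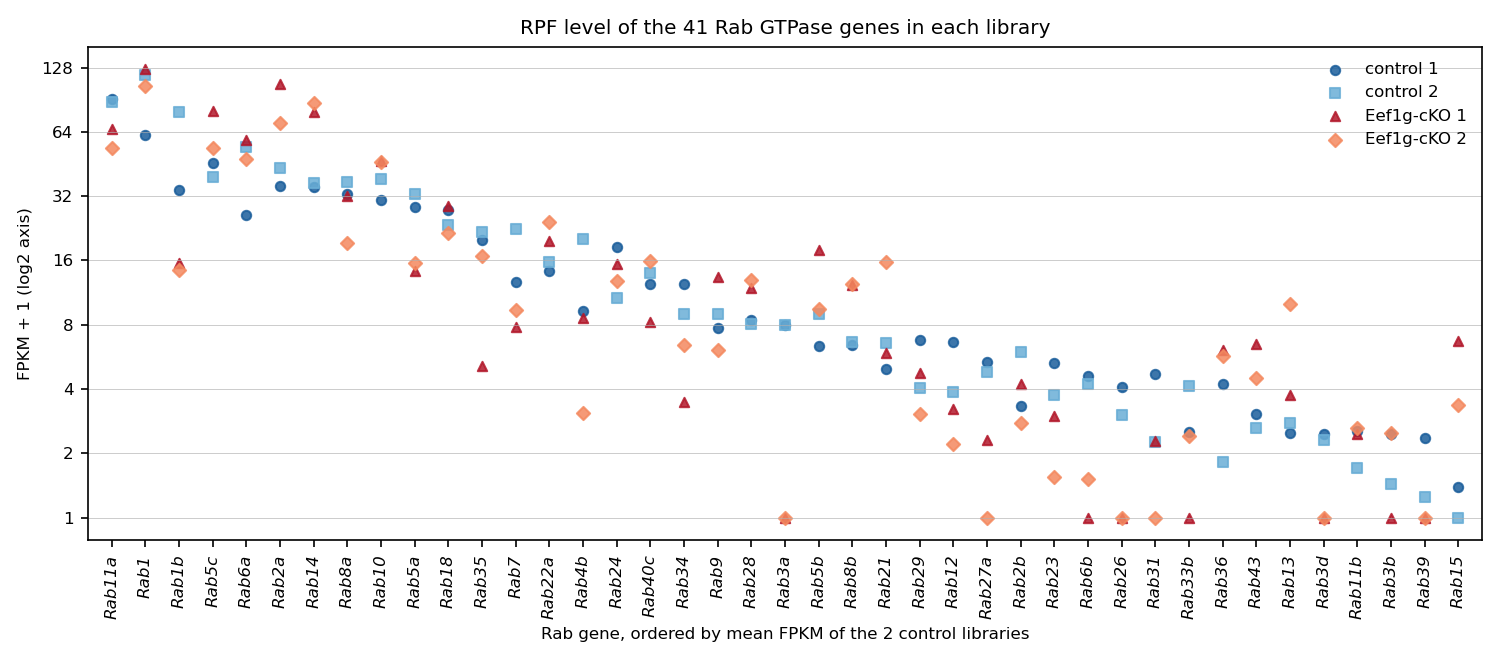
FPKM + 1 on a log2 axis for each of the 41 Rab genes in the 4 libraries, ordered by mean control FPKM; each point is 1 library and a value of 1 is 0 reads. *Rab14* and *Rab2a* have both *Eef1g*-cKO points above both control points, *Rab1b* and *Rab5a* have them below, and *Rab3a* has both *Eef1g*-cKO points at 0 reads.

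As a family, Rabs took a similar part of all RPFs in the 2 genotypes. Their summed reads came to 1508 and 1872 per 1000000 in control, against 2023 and 1767 in *Eef1g*-cKO, a ratio of means of 1.12, and the groups overlapped. Under this level, single members moved in opposite directions. With 2 libraries against 2 an exact permutation test cannot go below p = 0.333, so genes were tested with limma on log2(FPKM + 1), over 10475 genes whose 4-library mean reached 1 FPKM. Of the 41 members 38 passed that filter. The others, *Rab3b*, *Rab3d* and *Rab39*, had 14 or fewer reads in every library and 2 or fewer in each *Eef1g*-cKO library.

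By limma's adjusted p under 0.05 with an absolute log2 fold change above 1, 1 of 38 Rabs rose (*Rab14*) and 1 fell (*Rab3a*), against backgrounds of 2.87% and 4.97% of all tested genes. At unadjusted p, 3 were called increased (*Rab14*, *Rab15*, *Rab2a*; background 7.32%) and 6 decreased (*Rab1b*, *Rab26*, *Rab27a*, *Rab3a*, *Rab5a*, *Rab6b*; background 16.3%). The mean of *Rab15* was below 1 FPKM in control, and those of *Rab26*, *Rab27a*, *Rab3a* and *Rab6b* were below 1 FPKM in *Eef1g*-cKO. These genes passed the filter only through the genotype where they were higher, so their inclusion was not independent of their direction. By edgeR's quasi-likelihood test on the recovered reads, 2 of 26 tested Rabs rose (*Rab14*, *Rab2a*; background 8.75%) and 2 fell (*Rab1b*, *Rab6b*; background 11.2%). In 12 of the 38 the lower *Eef1g*-cKO value exceeded the higher control value (background 24.6%), and in 15 the groups were apart in the opposite order (background 37.7%). Read against these backgrounds, the counts show nothing particular to the family. With either control library left out, limma called 0 of all genes in the table (0 Rabs), so each limma call given here needs both control libraries.

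The median log2 fold change was -0.11 over the 38 Rabs and -0.23 over all tested genes. With the genes at 0 reads in both *Eef1g*-cKO libraries set to their bound (2 Rabs, 391 of all genes), the medians were -0.01 and -0.19. Positive values were found for 17 Rabs and negative ones for 21. Of the 41 members, 14 had 3 or fewer reads in each *Eef1g*-cKO library, 4 of them none in either. A gene with so few reads there lies below control almost by its choice. Among the 21 tested Rabs with at least 10 reads over both *Eef1g*-cKO libraries the median was 0.44, against 0.08 over the 6420 such genes, a split that by its making leaves out genes that fell.

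**Figure D2:**
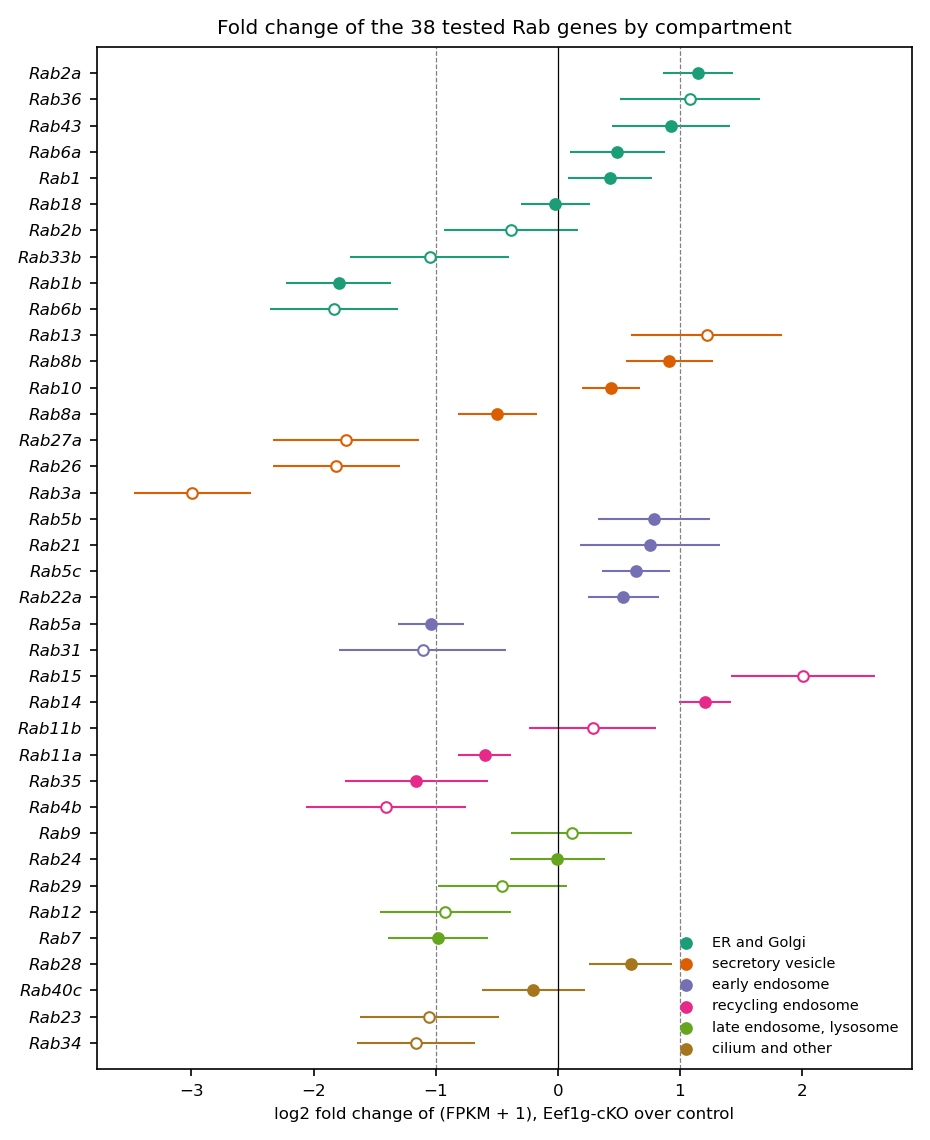
log2 fold change of (FPKM + 1), *Eef1g*-cKO over control, for the 38 tested Rab genes grouped by the membrane they mark; points are limma estimates with their standard errors (n = 2 libraries per genotype), open points have under 10 reads over both *Eef1g*-cKO libraries, and dashed lines mark a change of 1. Each compartment holds members on both sides of 0, from -2.99 (*Rab3a*) to 2.01 (*Rab15*).

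The ER and Golgi Rabs held the most reads and had members on both sides. Their 11 members took 525 and 850 reads per 1000000 in control, against 920 and 713 in *Eef1g*-cKO. *Rab2a*, which acts between the ER and the Golgi and in acrosome formation, had 176 and 120 reads in control, against 49 and 58 in *Eef1g*-cKO, or 34.5 and 42.1 FPKM against 106 and 69.1. Both *Eef1g*-cKO libraries were above both controls. Its log2 fold change was 1.15 ± 0.28 (SE), with an adjusted p of 0.0623 by limma and 0.00287 by edgeR.

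*Rab1b*, the paralog of *Rab1* on the same ER-to-Golgi step, moved the other way. It had 151 and 198 reads in control, against 6 and 10 in *Eef1g*-cKO, or 33.2 and 78.0 FPKM against 14.6 and 13.4. The *Eef1g*-cKO libraries were alike and below both controls, which themselves stood apart. The log2 fold change was -1.80 ± 0.43 (limma adjusted p = 0.0587), and edgeR gave -1.89 with an adjusted p of 0.00574. *Rab1* had 60.6 and 117 FPKM in control, against 124 and 103 in *Eef1g*-cKO, overlapping, with a log2 fold change of 0.43 ± 0.34.

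*Rab6a*, the main Golgi Rab for retrograde transport, likewise overlapped, at 25.0 and 53.5 FPKM in control, against 57.8 and 46.5 in *Eef1g*-cKO. For both *Rab1* and *Rab6a* control 1 was the low library, and without it the log2 fold change was -0.04 for each. *Rab6b* had 42 and 21 reads in control, against 0 and 1 in *Eef1g*-cKO. Its pooled rate in control was 10.3 times that in *Eef1g*-cKO, with an exact 95% interval from 1.78 to 413 for counting error. The adjusted p was 0.0818 by limma, 0.0417 by edgeR and 0.223 by DESeq2. The remaining Golgi Rabs did not pass either test. *Rab18*, found on the ER and on lipid droplets, had 26.5 and 22.3 FPKM in control, against 27.9 and 20.6 in *Eef1g*-cKO, a log2 fold change of -0.02 ± 0.28. *Rab36* (1.08 ± 0.58) and *Rab43* (0.93 ± 0.48) lay above control in both libraries, *Rab33b* (-1.05 ± 0.65) lay below, and *Rab2b* overlapped at -0.38 ± 0.55.

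Among Rabs of secretory vesicles, *Rab3a*, which sets up regulated exocytosis and also acts in the acrosome reaction of sperm, had 25 and 14 reads in control and 0 in both *Eef1g*-cKO libraries. In FPKM this was 6.95 and 6.97 against 0 and 0. With a floor of 3 reads over both *Eef1g*-cKO libraries together, it was at least 2.13-fold lower, and the exact 95% interval, which also counts the error of the control reads, started at 1.65-fold. At the control rate 2.26 and 4.12 reads would have been counted there. limma gave an adjusted p of 0.0336 (0.124 without control 1 and 0.136 without control 2), while edgeR's filter on low counts left the gene out. The call also ended with edgeR without that filter (adjusted p = 0.0689), with a pseudocount of 0.1 (limma adjusted p = 0.0540) and without a trend (limma adjusted p = 0.0561), and DESeq2 gave it no adjusted p. Its fitted log2 fold change of -2.99 depends on the pseudocount. The exocytic Rabs *Rab27a* and *Rab26* were also near the limit of detection. *Rab27a* had 37 and 18 reads in control, against 1 and 0 in *Eef1g*-cKO, a pooled rate in control of 8.99 times that in *Eef1g*-cKO (exact 95% interval 1.55 to 362; limma adjusted p = 0.119). *Rab26* had 11 and 4 reads in control and 0 in both *Eef1g*-cKO libraries, too few for a bound, with a limma adjusted p of 0.0827. *Rab3d* had 14 and 7 reads in control and none in either *Eef1g*-cKO library, and its exact 95% interval included equal rates.

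*Rab8a* and *Rab8b*, which carry cargo to the plasma membrane and the cilium, differed in direction. *Rab8b* had 5.43 and 5.63 FPKM in control, against 11.3 and 11.4 in *Eef1g*-cKO, a log2 fold change of 0.92 ± 0.36 (limma adjusted p = 0.153, edgeR adjusted p = 0.0578). Replicates of each genotype were nearly equal, and the *Eef1g*-cKO pair was higher. *Rab8a* had 31.9 and 36.3 FPKM in control, against 31.1 and 18.3 in *Eef1g*-cKO, barely without overlap (-0.49 ± 0.32). *Rab10*, an exocytic relative, had 29.7 and 37.4 FPKM in control, against 45.8 and 45.4 in *Eef1g*-cKO (0.44 ± 0.24, limma adjusted p = 0.265). *Rab13* went from 6 and 4 reads to 1 and 6 (1.22 ± 0.62, limma adjusted p = 0.238).

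Of the early endosome Rabs, *Rab5a* was lower and *Rab5b*, *Rab5c* and *Rab22a* higher in both *Eef1g*-cKO libraries. The RAB5 proteins govern fusion of endocytic vesicles with the early endosome. *Rab5a* had 161 and 104 reads in control, against 7 and 14 in *Eef1g*-cKO, or 27.5 and 31.8 FPKM against 13.2 and 14.5. The 2 genotypes were well separated, with replicates close together. The log2 fold change was -1.04 ± 0.27 (limma adjusted p = 0.0680, edgeR adjusted p = 0.0701).

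*Rab5c* had 44.6 and 38.1 FPKM in control, against 79.5 and 53.0 in *Eef1g*-cKO (0.64 ± 0.28, limma adjusted p = 0.180). *Rab5b* had 5.33 and 7.96 FPKM in control, against 16.9 and 8.49 in *Eef1g*-cKO (0.79 ± 0.46, limma adjusted p = 0.292), with the second *Eef1g*-cKO library only just above control. None of the early endosome Rabs passed an adjusted test. *Rab22a* had 13.3 and 14.8 FPKM against 18.7 and 23.1 (0.54 ± 0.29). *Rab21* (0.76 ± 0.58) and *Rab31* (-1.11 ± 0.68) overlapped between genotypes. The summed early endosome Rabs came to 198 and 203 reads per 1000000 in control, against 259 and 216 in *Eef1g*-cKO.

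*Rab14*, which works between the Golgi and endosomes in recycling, was the Rab called increased by limma, edgeR and DESeq2 alike. It had 262 and 153 reads in control, against 54 and 109 in *Eef1g*-cKO, or 34.3 and 35.9 FPKM against 78.3 and 86.7. Replicates agreed closely in each genotype, and both *Eef1g*-cKO libraries lay far above control. The log2 fold change was 1.21 ± 0.21, with an adjusted p of 0.0371 by limma, 0.000511 by edgeR and 0.00137 by DESeq2. The limma call ended without control 1 (adjusted p = 0.199) or control 2 (adjusted p = 0.219).

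*Rab11a*, the classical recycling endosome Rab and the highest in control, had 90.2 and 87.6 FPKM in control, against 65.1 and 52.5 in *Eef1g*-cKO. Both *Eef1g*-cKO libraries were lower, by -0.60 ± 0.22 on the log2 scale (limma adjusted p = 0.133, edgeR adjusted p = 0.114). Its paralog *Rab11b* was near 1 FPKM throughout, at 1.53 and 0.715 in control, against 1.47 and 1.62 in *Eef1g*-cKO. It overlapped between genotypes, on 2 and 4 *Eef1g*-cKO reads (0.29 ± 0.52). *Rab15*, a Rab of early and recycling endosomes, had the largest positive fitted change (2.01 ± 0.59, limma adjusted p = 0.0861). It rested on 3 and 0 reads in control, against 4 and 3 in *Eef1g*-cKO, and its pooled rate ratio of 14.3 had an exact 95% interval from 3.26 to 85.5. In FPKM this was 0.387 and 0 against 5.72 and 2.35, so *Rab15* passed the filter on mean FPKM only through *Eef1g*-cKO. Its p-value and interval do not allow for that selection. *Rab35* had 18.8 and 20.7 FPKM in control, against 4.13 and 15.9 in *Eef1g*-cKO (-1.16 ± 0.59), and *Rab4b* had 8.27 and 19.1 against 7.63 and 2.10 (-1.40 ± 0.66). Neither passed a test, and the *Eef1g*-cKO libraries differed widely for both. The 6 recycling Rabs together took 377 and 387 reads per 1000000 in control, against 438 and 444 in *Eef1g*-cKO, the increase of *Rab14* outweighing the lower *Rab11a*.

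Of the 5 late endosome and lysosome Rabs, 2 (*Rab7* and *Rab12*) lay below both controls in both *Eef1g*-cKO libraries, near the background of 37.7%. The other 3 overlapped and none passed a test. *Rab7*, which directs late endosomes to the lysosome, had 76 and 78 reads in control, against 4 and 9 in *Eef1g*-cKO, or 11.7 and 21.5 FPKM against 6.81 and 8.41. Both *Eef1g*-cKO libraries were below both controls, with a log2 fold change of -0.98 ± 0.41 (limma adjusted p = 0.173, edgeR adjusted p = 0.168). *Rab12* (-0.92 ± 0.54) and *Rab29* (-0.45 ± 0.53) had 1 read in each *Eef1g*-cKO library. *Rab24* (0.00 ± 0.39) and *Rab9* (0.12 ± 0.50) overlapped between genotypes. Summed, the 5 genes took 91.2 and 95.4 reads per 1000000 in control, against 71.5 and 56.4 in *Eef1g*-cKO, without overlap.

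The last group holds Rabs of the cilium and others. *Rab34* and *Rab23*, both linked to the cilium, were lower in both *Eef1g*-cKO libraries. *Rab34* had 51 and 20 reads in control, against 1 and 4 in *Eef1g*-cKO (-1.16 ± 0.49, limma adjusted p = 0.175), and *Rab23* had 48 and 17 reads against 2 and 1 (-1.05 ± 0.57). *Rab28* had 7.40 and 7.07 FPKM in control, against 10.9 and 12.0 in *Eef1g*-cKO (0.60 ± 0.34, limma adjusted p = 0.287). *Rab40c*, which recruits a ubiquitin ligase through its SOCS box, overlapped (-0.20 ± 0.42). No gene of this group passed a test.

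Ratios of paralogs within a library remove any scaling between libraries, and they show how the balance of RPFs between close relatives changes. Each ratio also carries the gene lengths of its pair, which are the same in every library. Only its change between genotypes is read here. *Rab1b* over *Rab1* was 0.548 and 0.668 in control, against 0.117 and 0.129 in *Eef1g*-cKO, a ratio of means of 4.93. *Rab5a* over *Rab5c* was 0.616 and 0.834 against 0.166 and 0.274. *Rab8a* over *Rab8b* was 5.87 and 6.45 against 2.76 and 1.61. In each of these pairs both *Eef1g*-cKO libraries lay apart from both controls, and the paralog with the smaller share than in control was *Rab1b*, *Rab5a* or *Rab8a*.

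*Rab2b* over *Rab2a* was 0.0679 and 0.118 in control, against 0.0305 and 0.0257 in *Eef1g*-cKO, on 2 reads of *Rab2b* in each *Eef1g*-cKO library. *Rab6b* over *Rab6a* was 0.143 and 0.0599 against 0 and 0.0111. For *Rab11b* over *Rab11a* the order was reversed, with 0.0170 and 0.00816 in control, against 0.0226 and 0.0308 in *Eef1g*-cKO. That ratio rested on 2 and 4 *Eef1g*-cKO reads of *Rab11b*, most of whose coding windows are shared with a pseudogene. *Rab5a* over *Rab5b* was 5.15 and 3.99 against 0.784 and 1.71. The pairs were chosen with these results known and ratios of other gene pairs were not computed, so these 7 ratios are given with no test, and that none overlapped between genotypes is a description. The control libraries differed by more than the genotypes for *Rab1* and *Rab6a* levels, but not for these ratios.

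**Figure D3:**
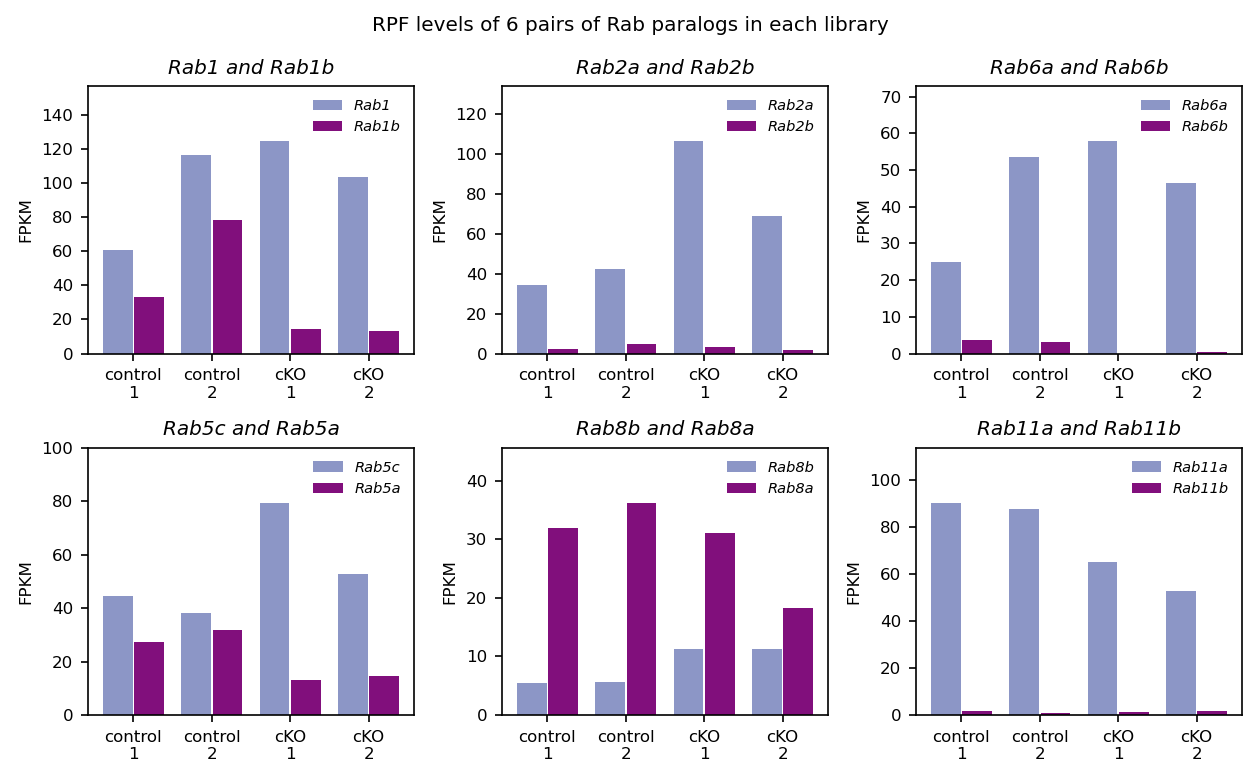
FPKM of 6 pairs of Rab paralogs in the 2 control and 2 *Eef1g*-cKO libraries; each bar is 1 library and each panel has its own axis from 0. The bars of *Rab1b* and *Rab5a* are lower in both *Eef1g*-cKO libraries than in control, while those of *Rab1* overlap and those of *Rab5c* are higher.

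For some of these pairs the split ran alongside base composition. GC3 is the share of codons that end in G or C, which differs widely among Rabs, from 31.6% (*Rab5a*) to 81.4% (*Rab43*). *Rab1* had 46.3% and *Rab1b* 68.7%, *Rab6a* 48.1% and *Rab6b* 73.1%, and *Rab8b* 52.2% and *Rab8a* 70.0%. *Rab14* (39.5%) and *Rab2a* (45.8%), the Rabs with higher RPF abundance by edgeR, were AT-ending, and *Rab3a* (72.7%) was GC-ending. Of 16 tested Rabs below the median GC3 of all tested genes (60.2%), 11 had a positive log2 fold change, with a median of 0.46. Of the 22 above it, 6 had, with a median of -0.95.

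All genes showed the same lean, with 51.2% of 5064 genes below and 30.5% of 5065 genes above that value positive. Spearman's correlation between GC3 and log2 fold change was -0.30 over 38 Rabs and -0.30 over 10129 genes, a description across genes of the same libraries with no test. Over the 21 Rabs with at least 10 *Eef1g*-cKO reads it was -0.21, and with edgeR's fold changes over 26 Rabs -0.20. *Rab5a* had the lowest GC3 and yet was lower in *Eef1g*-cKO, and *Rab11a* (39.8%) was lower too. *Rab5b* (56.3%) and *Rab5c* (64.1%), the paralogs of *Rab5a*, had positive fold changes that passed no adjusted test, so these pairs ran the other way. The fold change of *Rab11b* (67.9%), 0.29 ± 0.52 with overlapping groups, was too uncertain to give a direction. Depth and GC3 both differ between these genes and libraries, and their part in the pattern was not tested.

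**Figure D4:**
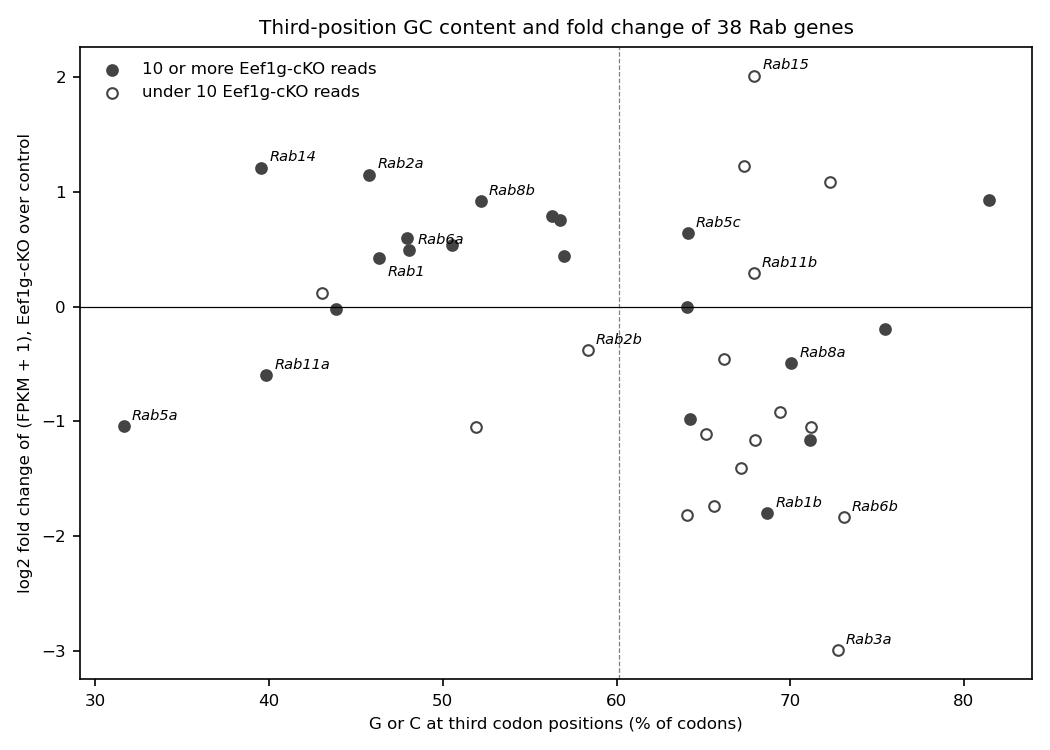
log2 fold change of (FPKM + 1), *Eef1g*-cKO over control, against the share of codons ending in G or C for the 38 tested Rab genes; open points have under 10 reads over both *Eef1g*-cKO libraries, and the dashed line is the median of all tested genes (60.2%). Points left of the line lie mostly above 0 (11 of 16) and points right of it mostly below (16 of 22), and *Rab5a* and *Rab11a* are among the exceptions on the left.

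The proteins that load, switch and read Rabs were counted in lists, against the same backgrounds of 2.87% of all tested genes increased and 4.97% decreased by limma's adjusted p, and 8.75% and 11.2% by edgeR. The 8 genes for Rab prenylation and extraction were all tested and none was called in either direction by limma's adjusted p. Their median log2 fold change was -0.66, against -0.23 over all tested genes. Of the 8, 3 were positive (*Chm* 0.50, *Rabac1* 0.24 and *Gdi2* 0.21) and 5 negative. They include *Chm* and *Chml*, the escort proteins that present new Rabs to the transferase, its subunits *Rabggta* (28.7 and 30.9 FPKM in control, 14.0 and 24.1 in *Eef1g*-cKO) and *Rabggtb* (19.1 and 25.3 against 15.9 and 11.6), and *Gdi2*, which extracts Rabs from membranes. At unadjusted p with the same fold limit none of the 8 was called either, and edgeR called 0 of 6.

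The 41 tested GEFs had a median log2 fold change of -0.03. *Gapvd1*, which acts on RAB5, rose, and had 25.8 and 23.7 FPKM in control and 63.0 in each *Eef1g*-cKO library, a log2 fold change of 1.32 ± 0.22 (limma adjusted p = 0.0352). The replicates of each genotype agreed and the genotypes were far apart. Of 35 tested GAPs none passed limma's adjusted p (median 0.27). At unadjusted p 3 were increased (background 7.32%) and 1 decreased (background 16.3%), and edgeR called 4 of 32 increased and 1 decreased.

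Among 44 tested effectors 1 fell and none rose by limma's adjusted p (median -0.35). It was *Rab11fip4*, which binds RAB11, with 38.2 and 44.1 FPKM in control, against 8.52 and 6.24 in *Eef1g*-cKO, -2.34 ± 0.30 (limma adjusted p = 0.0283). The genotypes were well apart, on 298 and 192 reads against 6 and 8. At unadjusted p, 1 effector was called increased (background 7.32%) and 5 decreased (background 16.3%), and edgeR called 3 in each direction of 39. Read against these backgrounds, the counts show nothing particular to the effectors. None of the 5 tested Rab-like genes passed limma's adjusted p (median -0.57). At unadjusted p 0 were increased and 1 decreased, against the same 7.32% and 16.3%, and edgeR called 0 of 4.

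The Arf and Ras families of small GTPases were read against the same backgrounds. In the Arf and Arl family, *Arl13b*, a GTPase of the ciliary membrane, rose (6.75 and 6.15 FPKM in control, 25.4 and 22.3 in *Eef1g*-cKO, log2 fold change 1.73 ± 0.31, limma adjusted p = 0.0380), as 1 of 21 tested, with a family median of -0.03. In the Ras family 2 of 17 fell by limma's adjusted p (median -0.76). These were *Rras* (27.3 and 29.0 against 9.44 and 5.18 FPKM, limma adjusted p = 0.0436) and *Rras2* (21.5 and 31.1 against 7.85 and 7.54 FPKM, limma adjusted p = 0.0457). By edgeR 2 of 11 were called decreased, *Rras2* (edgeR adjusted p = 0.0152) and *Rasd2* (edgeR adjusted p = 0.0240, limma adjusted p = 0.0502). *Rras* was not called by edgeR (adjusted p = 0.0517). The difference between these families and the Rabs was not tested.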

How the data were processed

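The authors deposited 1 table for the 4 libraries. The authors computed FPKM as reads per kilobase per 1000000 reads on genes. They also deposited a signal per gene and library, the count over a size factor, of which 100% were whole multiples of 1 read (tolerance 0.0001), and reads were recovered from it. No row had fewer than 10 reads summed over libraries. The authors' own log2 fold changes, errors, test score, p-values and adjusted p-values in the same table were not used. The methods describe trimming of adapters, a quality filter, alignment to the genome and RiboMiner; processing notes list cutadapt, Bowtie, STAR and the mm10 and hg38 builds without roles. The counter, its strand setting and the annotation are not given in the sources used here.

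FPKM were tested with limma 3.58.1 (R 4.3.3) on log2(FPKM + 1), trended prior variance, mean of at least 1 FPKM, Benjamini-Hochberg adjustment. A call needed adjusted p below 0.05 together with a log2 fold change beyond 1 in size. Alternatives were other pseudocounts, filters, scalings and priors, a replicate block, edgeR 4.0.16, DESeq2 1.42.0 and leaving out each library. The fits were tested on counts simulated at these depths with known fold changes. There limma recovered the fold changes but called almost none of the changed genes by adjusted p, while edgeR called most. The number of changed genes and the spread between libraries were set for the simulation. In these data limma called 822 of 10475 genes, so the power seen there need not hold here. Either way, a gene not called by limma's adjusted p is not shown to be unchanged. Bounds used 3 reads, and exact 95% intervals cover counting error only. Coding sequences came from GENCODE M21.

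The members, gene lists and pairs were chosen with earlier results of these data known. Named genes were *Eef1g*, Rabs past the fold limit at unadjusted p, the 10 highest in control, those without overlap at 5 FPKM or more, those a pair, group or count rests on, and list genes passing adjusted p (at most 3 a direction). Markers and remaining Rabs were named after their values were seen. Some list genes, families and sequences are not reported here.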

Additional observations from a re-analysis of the deposited data

How the results depend on the processing

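Over 15 alternatives, 31 of the 38 tested Rabs kept the direction of their log2 fold change in every fit that tested them. Main counts by adjusted p were 1 increased and 1 decreased Rab. With a pseudocount of 0.1, or without a trend in limma's prior variance, both counts were 0. The increased count was 2 (*Rab14* and *Rab2a*) with a mean of at least 5 FPKM, with centred libraries, with edgeR, with edgeR without a filter and with DESeq2, and 0 to 3 when 1 library was left out. The decreased count was 2 with a pseudocount of 5 and a robust prior (*Rab1b* and *Rab3a*) and with edgeR (*Rab1b* and *Rab6b*), 1 (*Rab1b* in place of *Rab3a*) with edgeR without a filter and with DESeq2, and 0 to 5 when 1 library was left out. Without either control library limma called 0 genes of the whole table, where the control spread then rests on 1 library assumed to vary like the others. With the replicate number as a block the counts were 2 increased and 2 decreased. Deviations of same-numbered libraries did not correlate (r = -0.00804), so the numbers were not taken as pairs. At unadjusted p, 6 decreased Rabs became 2 with a pseudocount of 5, a mean of at least 5 FPKM or DESeq2, and 3 with edgeR. The median log2 fold change of -0.11 became 0.12 with a mean of at least 5 FPKM, 0.10 with centred libraries and 0.12 with edgeR. Centring moves every gene up by 0.21. The ratio of summed Rab reads ranged from 1.01 to 1.26 when 1 library was left out.

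Values that changed sign, all of Rabs called by no test, were few. On leaving out 1 library the log2 fold change ranged from -0.041 to 0.89 for *Rab1*, -0.044 to 1.02 for *Rab6a*, -0.23 to 0.19 for *Rab18*, -0.40 to 0.39 for *Rab24*, -0.80 to 0.039 for *Rab2b*, -0.45 to 0.68 for *Rab9* and -0.67 to 0.27 for *Rab40c*. With centred libraries it was 0.19 for *Rab18*, 0.21 for *Rab24* and 0.014 for *Rab40c*, and with a pseudocount of 0.1 it was 0.00098 for *Rab24*. edgeR gave 0.024 for *Rab18* with or without its filter and 0.039 for *Rab40c*, and DESeq2 gave 0.021 for *Rab18*. The causes were not tested. *Eef1g*-cKO depth limits every Rab below about 10 reads there, and a Rab with 0 reads could still have 3.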
